A study of Homo sapiens with 27 samples.

Results

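The 10 genes described here are immediate early and stress response genes, namely ATF3, FOS, FOSL1, JUN, JUNB, EGR1, IER3, KLF4, KLF6 and DUSP1. They were found in the deposited count table by their Entrez IDs and make up 10 of its 24566 rows, with 1 row each. The set was chosen by measured values, the much higher ATF3 and KLF6 of the vehicle control over untreated A431 cells, so the values of every comparison with the vehicle control are given below as a description, with no test. Comparisons with untreated A431 cells share those libraries with the contrast that chose the genes. The interaction of CKI and doxorubicin and that of cell line and CKI share them too. Their p-values and counts of genes called are not independent of the choice. The comparisons of CKI plus doxorubicin with doxorubicin and with CKI compare no library of that contrast, but share its fit and estimate of the spread. The 6 comparisons within MDA-MB-231 cells use no library of that contrast.

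RNA-seq libraries were made from 2 established human cell lines after 48 h, with 3 libraries in each of 9 groups. A431 is an epidermoid carcinoma line, and its 5 groups were untreated, vehicle control, CKI, doxorubicin and CKI with doxorubicin. MDA-MB-231 is a breast adenocarcinoma line, and its 4 groups were untreated, CKI, 5-FU and CKI with 5-FU. CKI (Compound Kushen Injection) is an extract of the herbs Kushen and Baituling, and its concentration was 1.0 mg/ml, for which the labels of the groups with CKI alone also give 1 in 20. 5-FU (5-fluorouracil, a pyrimidine analogue that disturbs nucleotide synthesis) was used at 10 ug/ml, and doxorubicin is a DNA intercalator that poisons topoisomerase II. The labels give neither the content of the vehicle control nor a single dose for doxorubicin, there was no vehicle control for MDA-MB-231, and each line stands for its tumour type alone. No source says that the 3 libraries of a group came from separate cultures, so p-values measure the spread between libraries, which may be technical.

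Immediate early genes are transcribed within minutes of a growth factor, cytokine or stress signal without new protein synthesis, and their mRNAs usually decay quickly. In the classical scheme MAP kinases act on the serum response factor and its partners at CArG boxes and on CREB and ATF proteins at cyclic AMP response elements. FOS, FOSL1, JUN and JUNB are subunits of the AP-1 transcription factor, and ATF3 is a related leucine zipper protein known as a stress-induced repressor. EGR1, KLF4 and KLF6 are zinc finger transcription factors. DUSP1 is a phosphatase that switches off JNK and p38 kinases, and IER3 is a small protein linked to cell survival and ERK signalling.

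For 8 of the 10 genes a promoter window was present in the RefSeq set for GRCh38.p14, running from 250 bases before to 50 bases after an annotated start, and FOSL1 and IER3 had none. ATF3 had 2 windows, at different annotated starts, and the one farther upstream is shown because it holds the motif. The other, chr1:212614768-212615067, held none of the motifs searched. Which start these cells used was not measured. The 250 bases upstream of the start are printed for 6 genes because these were more than 2-fold higher in both the vehicle control and the CKI libraries of A431. They run 5′ to 3′ on the strand of the gene, and capitals mark the motif named beside each gene.
ATF3, chr1:212565157-212565406, plus strand, with TGACATCA: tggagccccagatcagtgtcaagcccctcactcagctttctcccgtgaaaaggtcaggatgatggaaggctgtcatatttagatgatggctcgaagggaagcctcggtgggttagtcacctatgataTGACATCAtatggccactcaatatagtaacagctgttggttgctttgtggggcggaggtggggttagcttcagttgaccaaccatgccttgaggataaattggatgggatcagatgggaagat
JUN, chr1:58784048-58784297, minus strand, with TGACATCA: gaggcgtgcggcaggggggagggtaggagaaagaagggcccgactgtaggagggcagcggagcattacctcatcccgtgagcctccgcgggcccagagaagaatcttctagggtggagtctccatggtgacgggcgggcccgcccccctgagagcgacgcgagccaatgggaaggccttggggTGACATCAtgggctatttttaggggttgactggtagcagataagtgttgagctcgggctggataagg
KLF6, chr10:3785210-3785459, minus strand, with TGACATCA: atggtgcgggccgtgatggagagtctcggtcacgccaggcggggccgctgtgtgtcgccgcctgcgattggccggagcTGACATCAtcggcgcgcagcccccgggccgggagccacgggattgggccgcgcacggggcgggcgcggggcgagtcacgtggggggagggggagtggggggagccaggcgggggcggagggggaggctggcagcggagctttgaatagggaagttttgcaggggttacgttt
DUSP1, chr5:172771196-172771445, minus strand, with TGACGTCA: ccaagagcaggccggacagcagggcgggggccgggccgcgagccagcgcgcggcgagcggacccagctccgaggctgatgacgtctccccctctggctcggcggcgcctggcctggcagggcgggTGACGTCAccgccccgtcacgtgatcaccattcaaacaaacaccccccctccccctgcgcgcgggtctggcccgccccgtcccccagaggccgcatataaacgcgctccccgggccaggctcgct
EGR1, chr5:138465229-138465478, plus strand, with CArG boxes: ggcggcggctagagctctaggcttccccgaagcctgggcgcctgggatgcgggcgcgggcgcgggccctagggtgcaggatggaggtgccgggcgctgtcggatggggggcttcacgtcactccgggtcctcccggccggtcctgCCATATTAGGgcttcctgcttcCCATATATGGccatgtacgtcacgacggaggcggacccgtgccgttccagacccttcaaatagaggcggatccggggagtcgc
FOS, chr14:75278578-75278827, plus strand, with TGACG: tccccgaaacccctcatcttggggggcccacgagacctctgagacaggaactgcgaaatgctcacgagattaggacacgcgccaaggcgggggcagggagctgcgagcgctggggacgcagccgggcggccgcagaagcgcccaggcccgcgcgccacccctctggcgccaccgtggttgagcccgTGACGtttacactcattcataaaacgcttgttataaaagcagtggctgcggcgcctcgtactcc

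In these windows the letters TGACATCA differ by 1 base from the cyclic AMP response element TGACGTCA. The letters TGACATCA began 123 bases upstream of the start in the ATF3 window shown, 67 in JUN and 172 in KLF6. They were searched on both strands, and were added after the windows had been read. TGACATCA was found for 3 of the 8 genes and for 3.18% of the 27305 genes with a window of this length. The element TGACGTCA was found in DUSP1, 125 bases upstream, and for 2.25% of all genes. Its core TGACG, which TGACGTCA also contains, was found for 6 of the 8 genes and for 28.4% of all genes, and began 64 bases upstream in FOS. EGR1 held CArG boxes beginning 105 and 83 bases upstream, and 1.6% of all genes held 1 or more. The AP-1 site TGACTCA was found for 0 of the 8 genes and for 6.05% of all genes. These matches are descriptions of letters, and factor binding was not measured.

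All 10 genes passed the filter on low counts in every fit, and their lowest count in any library was 193. Levels are given as CPM, the count scaled to library size with TMM factors over the 27 libraries, at which 3 counts are worth 0.132 to 0.169 CPM. Gene positions are on GRCh37. JUNB overlaps HOOK2 on the other strand, IER3 overlaps IER3-AS1 and HCG20, and ATF3, KLF4 and DUSP1 also overlap an antisense transcript. The libraries were unstranded, so reads of these partners cannot be told apart from those of the genes. The libraries matched their labels by cell line. The summed level of 6 A431 markers (KRT5, KRT14, KRT6A, CDH1, DSG3 and PERP) was 5501 to 7054 CPM in A431 and 84.9 to 125 CPM in MDA-MB-231, where DSG3 was under 1 CPM. The summed level of 5 MDA-MB-231 markers (VIM, ZEB1, AXL, FN1 and SPARC) was 1893 to 3973 CPM in MDA-MB-231 and 285 to 1280 CPM in A431, where SPARC was under 1 CPM. Of these 5 markers, 4 were above 1 CPM in every MDA-MB-231 library and 3 in every A431 library. Of the 6 A431 markers, 6 were above 1 CPM in every A431 library and 1 in every MDA-MB-231 library. In bulk RNA, fewer cells of a kind and less RNA per cell cannot be told apart.

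ATF3 (chr1:212738676-212794119, plus strand) covered the widest range of the 10 genes within A431, with 35.3-fold between its highest and lowest group mean. Untreated A431 libraries had 12.2, 10.6 and 13.9 CPM of ATF3. Vehicle control libraries had 491, 423 and 384 CPM and CKI libraries had 313, 408 and 381 CPM, so these groups overlapped each other and lay far above the untreated one. Doxorubicin libraries had 147, 151 and 155 CPM and CKI with doxorubicin had 158, 148 and 164 CPM, again overlapping. In MDA-MB-231, ATF3 was at 18.2, 16.2 and 15.8 CPM without treatment and at 15.3, 16.5 and 15.2 CPM with CKI. The 5-FU libraries had 42.7, 42.5 and 41.8 CPM, above the 33.7, 33.4 and 33.8 CPM of CKI with 5-FU.

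FOS (chr14:75745529-75748933, plus strand), the founding AP-1 subunit, had the widest range over all 9 groups, 37.5-fold. It was at 147, 111 and 133 CPM in untreated A431, 678, 789 and 733 CPM in the vehicle control, and 756, 949 and 899 CPM with CKI. With doxorubicin it was at 71.9, 67.4 and 65.1 CPM, and with CKI plus doxorubicin at 67.1, 60.2 and 63.4 CPM, both below every untreated library. Untreated MDA-MB-231 cells had 390, 310 and 267 CPM of FOS, and 5-FU libraries had 20.8, 24.6 and 24.0 CPM, the lowest group of all. CKI alone (255, 255 and 242 CPM) and CKI with 5-FU (276, 254 and 240 CPM) overlapped.

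The other AP-1 subunits covered narrower ranges. JUN (chr1:59242517-59249720, minus strand) was at 319, 273 and 325 CPM in untreated A431, 645, 876 and 935 CPM in the vehicle control and 1210, 1253 and 1196 CPM with CKI. Doxorubicin libraries had 323, 317 and 332 CPM, which overlaps the untreated ones, and CKI with doxorubicin had 502, 439 and 445 CPM. JUNB (chr19:12902300-12904129, plus strand) was at 213, 186 and 218 CPM untreated, 294, 368 and 444 CPM in the vehicle control and 326, 410 and 381 CPM with CKI. FOSL1 (chr11:65659520-65668044, minus strand), another FOS family subunit, was at 207, 207 and 230 CPM untreated, at 260, 285 and 334 CPM in the vehicle control and at 203, 233 and 212 CPM with CKI. FOSL1 was lowest with doxorubicin, at 113, 110 and 121 CPM, and was at 298, 278 and 278 CPM with CKI plus doxorubicin.

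Among the zinc finger factors, EGR1 (chr5:137801168-137804992, plus strand) was at 137, 112 and 115 CPM in untreated A431, 730, 888 and 937 CPM in the vehicle control and 998, 1291 and 1222 CPM with CKI. Its doxorubicin libraries (135, 123 and 136 CPM) overlapped the untreated ones. KLF6 (chr10:3818188-3827473, minus strand) was at 51.7, 47.5 and 55.3 CPM untreated, 526, 539 and 477 CPM in the vehicle control and 487, 600 and 575 CPM with CKI. It was at 87.9, 98.7 and 89.2 CPM with doxorubicin and 186, 189 and 183 CPM with CKI plus doxorubicin, and these groups do not overlap. KLF4 (chr9:110247133-110252763, minus strand) was at 77.8, 70.6 and 82.1 CPM untreated, 137, 152 and 158 CPM in the vehicle control and 182, 194 and 186 CPM with CKI. It was the member with the lowest group mean in the vehicle control per kilobase of transcript.

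DUSP1 (chr5:172195099-172198198, minus strand) was at 26.9, 21.7 and 28.2 CPM in untreated A431, 272, 323 and 319 CPM in the vehicle control and 362, 433 and 426 CPM with CKI. Its doxorubicin libraries had 65.6, 64.4 and 63.5 CPM and those with CKI plus doxorubicin 99.3, 92.4 and 98.1 CPM, and no pair of these 5 groups overlapped. IER3 (chr6:30710976-30712325, minus strand) was the most abundant member per kilobase in 8 of the 9 groups. It was at 320, 298 and 337 CPM in untreated A431, between 393 and 444 CPM in the vehicle control, and at 613, 721 and 702 CPM with CKI. In MDA-MB-231 it was at 582, 824 and 833 CPM untreated, and between 1419 and 1670 CPM in the 9 treated libraries.

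**Figure D1:**
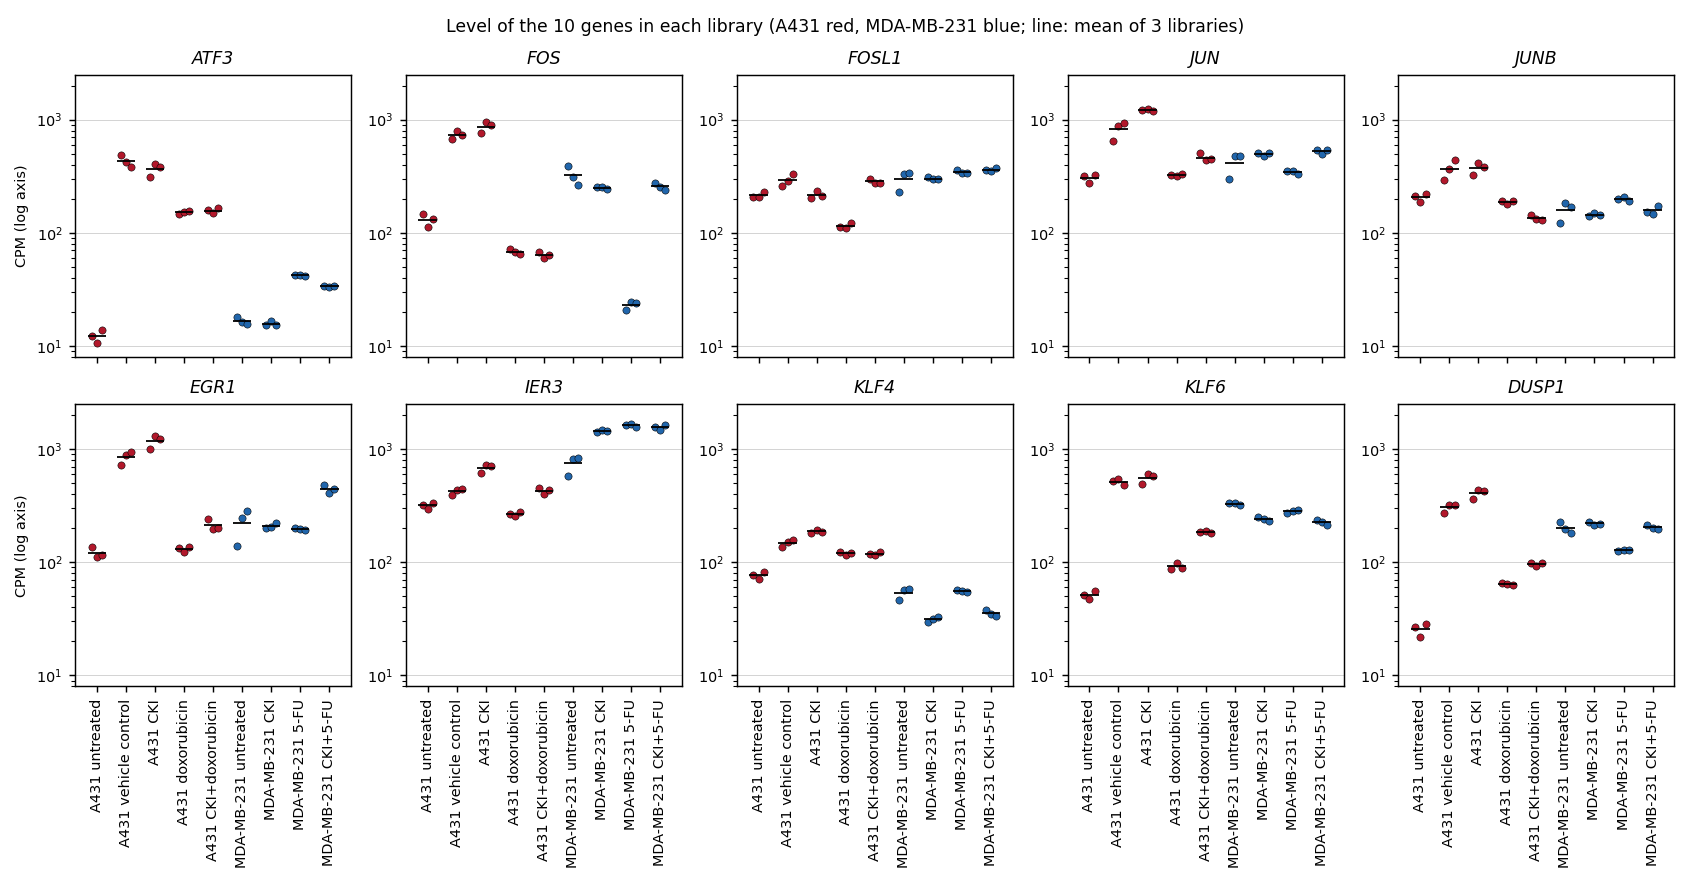
Level of each of the 10 genes in each of the 27 libraries, in CPM on a log axis, with 1 panel per gene, groups along the horizontal axis, points for libraries and a line for the mean of 3. ATF3, FOS, EGR1, KLF6 and DUSP1 stand highest in the vehicle control and CKI groups of A431, and FOS falls to between 20.8 and 24.6 CPM with 5-FU.

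Divided by the length of the canonical transcript, the order of the genes differed between groups. In untreated A431 the highest were IER3 with 257, FOSL1 with 126 and JUNB with 112 CPM per kilobase, and the lowest were DUSP1 with 12.7, KLF6 with 11.2 and ATF3 with 6.32. In the vehicle control, FOS led with 349 CPM per kilobase, followed by IER3 with 341 and EGR1 with 271, and ATF3 stood at 223. With CKI the order began with IER3 at 549, FOS at 413 and JUN at 374 CPM per kilobase. In untreated MDA-MB-231 it began with IER3 at 603, FOSL1 at 176 and FOS at 153, and ATF3 again came last with 8.62.

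The neighbours in the order of group means often overlapped. Of 8 neighbouring pairs of groups, the libraries overlapped in 1 pair for DUSP1, 2 for KLF4 and KLF6, 3 for ATF3, EGR1 and IER3, 4 for FOS, 5 for FOSL1 and JUNB and 6 for JUN. Within A431, the CKI group held the highest mean for FOS, JUN, JUNB, EGR1, IER3, KLF4, KLF6 and DUSP1, and the vehicle control for ATF3 and FOSL1. Within MDA-MB-231 the range between the highest and lowest group mean was 13.9-fold for FOS, 2.70-fold for ATF3, 2.28-fold for EGR1, 2.18-fold for IER3 and 1.21- to 1.78-fold for the others.

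In the vehicle control against untreated A431 cells, the contrast used to choose the genes, all 10 had a positive log2 fold change. Those beyond 1 on the log2 scale were ATF3 at 5.16 (standard error 0.116), DUSP1 at 3.58 (0.0915), KLF6 at 3.33 (0.0806), EGR1 at 2.82 (0.103) and JUN at 1.43 (0.0941), with FOS 5.67-fold higher. These are 6 of the 10 genes, and 7.05% of the 15881 genes of the fit were beyond 1 in either direction, 3% upward, from which nothing is read, since this contrast chose the genes. KLF4 was at 0.97, JUNB at 0.85, FOSL1 at 0.46 and IER3 at 0.42. Across all genes, the fold changes of this contrast went with GC content at a Spearman's rho of -0.58 and with transcript length at 0.31. With offsets for both, ATF3 was at 5.17, KLF6 at 3.15 and JUNB at 1.36, and 8 genes were beyond 1.

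CKI and the vehicle control differed by less than 2-fold in each of the 10 genes, with no test made. Values of CKI over vehicle control ran from -0.54 for FOSL1 to 0.58 for IER3 on the log2 scale, and 0 of the 10 were beyond 1, against 23.8% of all genes. The libraries of both groups overlapped for ATF3, FOS, JUNB and KLF6. Against the vehicle control, doxorubicin libraries were lower in all 10 genes, 8 of them by more than 2-fold, against 38.8% of all genes beyond 2-fold and 14.8% lower, which the high values that chose the genes partly fix, with FOS at -3.47, EGR1 at -2.74 and KLF6 at -2.52. CKI with doxorubicin was more than 2-fold lower in 6 genes, against 33.8% of all genes and 11.8% lower, with FOS at -3.54, EGR1 at -2.02 and DUSP1 at -1.67. FOSL1 at -0.06 and IER3 at 0.01 stood nearest to the vehicle control there.

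In A431, most of the genes were higher with CKI than in untreated cells, as they were in the vehicle control. Against untreated cells ATF3 rose 28.1-fold, DUSP1 14.9-fold, KLF6 10.1-fold, EGR1 9.07-fold and FOS 6.25-fold, and JUN and KLF4 rose too. By edgeR's quasi-likelihood test with Benjamini-Hochberg adjustment over 15881 genes, the log2 fold change of ATF3 was 4.81 (standard error 0.115, adjusted p = 1.6e-19), that of DUSP1 3.90 (0.0922, adjusted p = 1.5e-19) and that of KLF6 3.34 (0.0806, adjusted p = 1.9e-19). EGR1 had 3.18, FOS 2.64, JUN 1.90 and KLF4 1.19, each higher in 3 of 3 libraries. In all, 7 of the 10 genes rose and 0 fell by both thresholds (adjusted p under 0.05 and a log2 fold change beyond 1), while 22.4% of all genes were called, 12% upward. The untreated libraries also entered the contrast that chose the genes, so these p-values and counts are not independent of the choice. IER3 lay just under the threshold at 0.9999 and passed in 10 alternatives with the same thresholds, at up to 1.39 with GC and length offsets, 1.07 without CKI replicate 1 and 1.05 without untreated replicate 3. JUNB had 0.76 and passed with the offsets at 1.14, and FOSL1 had -0.08. The count was 8 with DESeq2 and 9 with the offsets, where the share of all genes called is not given here. The median of the 10 genes was 2.27, and that of all genes tested 0.00.

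Over untreated A431 cells, doxorubicin alone raised ATF3 and DUSP1, both of them below the vehicle control (log2 -1.55 and -2.28, no test). ATF3 rose 12.1-fold (log2 3.60, standard error 0.113, adjusted p = 5.4e-18 in edgeR's quasi-likelihood test with Benjamini-Hochberg adjustment) and DUSP1 2.47-fold (1.31, 0.0904, adjusted p = 7.5e-12). These are 2 of the 10 genes, where 37.3% of all genes were called and 23% rose. Here too the untreated libraries are those that helped to choose the genes. FOS at -0.96, FOSL1 at -0.93, KLF6 at 0.81 and KLF4 at 0.61 did not reach a 2-fold change, and EGR1 at 0.09 and JUN at 0.06 were near 0. FOS passed in 5 alternatives with the same thresholds, at -1.11 with GC and length offsets, -1.01 without doxorubicin replicate 1 and -1.08 without untreated replicate 2. The median of the 10 genes was 0.07 and that of all genes 0.02.

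With both agents in A431, ATF3 (3.67), DUSP1 (1.91) and KLF6 (1.84) were higher than in untreated cells and FOS (-1.04) was lower. These 4 of the 10 genes passed, and 35.5% of all genes did, against the same untreated libraries that helped to choose the genes. FOS lost its call without untreated replicate 1, at -0.96, with library size alone, at -0.73, and in 4 other alternatives. Added to doxorubicin, CKI raised FOSL1 2.51-fold (log2 1.33, standard error 0.0779, adjusted p = 1.3e-12) and KLF6 2.05-fold (log2 1.03, 0.0744, adjusted p = 4.4e-11) in edgeR's quasi-likelihood test with Benjamini-Hochberg adjustment. These are 2 of the 10 genes, against 14.9% of all genes called and 6.89% raised. ATF3 differed by 0.07 (adjusted p = 0.51), and the libraries of both groups overlapped. KLF6 lost its call with GC and length offsets, where it was at 0.97.

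Added to CKI, doxorubicin lowered 7 of the 10 genes and raised 0, where 25.7% of all genes were called and 9.06% were lower. The log2 fold change was -3.69 for FOS (standard error 0.0941, adjusted p = 4.0e-19), -2.38 for EGR1 (0.10, adjusted p = 2.4e-15) and -1.99 for DUSP1 (0.0816, adjusted p = 1.4e-15) in edgeR's quasi-likelihood test with Benjamini-Hochberg adjustment. KLF6 at -1.49, JUNB at -1.38, JUN at -1.32 and ATF3 at -1.14 fell too. KLF4 at -0.57, IER3 at -0.58 and FOSL1 at 0.48 stayed within 2-fold. The median of the 10 genes was -1.35 and that of all genes 0.05. With library size alone as the scaling, ATF3 was at -0.93 and lost its call.

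The interaction of CKI and doxorubicin asks whether the fold change with CKI over cells without it differed when doxorubicin was present. The vehicle control is not among its groups, so the parts of CKI and of a vehicle cannot be told apart. The interaction was past the thresholds for 9 of the 10 genes, against 19.5% of all genes. The interaction uses the untreated libraries that helped to choose the genes, so its count and p-values are not independent of that choice. It was negative for ATF3 (-4.74, standard error 0.145), DUSP1 (-3.30, 0.121), FOS (-2.72, 0.125), EGR1 (-2.46, 0.140) and KLF6 (-2.30, 0.107), with adjusted p values from 1.1e-16 to 1.8e-12 in edgeR's quasi-likelihood test with Benjamini-Hochberg adjustment. JUN (-1.37), JUNB (-1.21) and KLF4 (-1.19) were also negative, and FOSL1 was positive (1.41, standard error 0.109, adjusted p = 2.4e-10). IER3 was at -0.30. ATF3, KLF4, KLF6 and DUSP1 were above every untreated library in the CKI, doxorubicin and combined libraries.

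**Figure D2:**
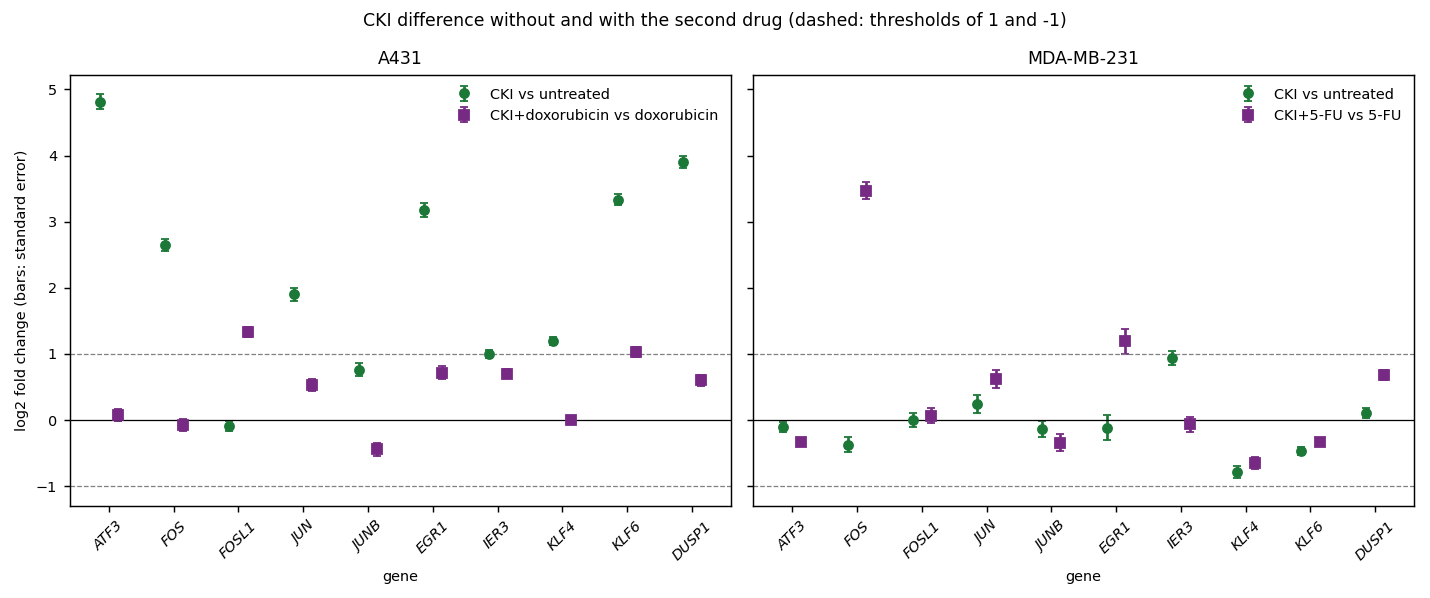
Log2 fold change of CKI over untreated (green circles) and of CKI plus a second drug over that drug alone (purple squares) for the 10 genes in A431 with doxorubicin and MDA-MB-231 with 5-FU. Bars are standard errors derived from edgeR's F statistic, and dashed lines mark 1 and -1. In A431 ATF3 goes from 4.81 to 0.07 and FOSL1 from -0.08 to 1.33, and in MDA-MB-231 FOS goes from -0.37 to 3.47.

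In MDA-MB-231, CKI alone changed 0 of the 10 genes past both thresholds, where 5.96% of all genes were called. By edgeR's quasi-likelihood test with Benjamini-Hochberg adjustment, 4 of the 10 had an adjusted p under 0.05 and a smaller change, against 36.2% of all genes with such a p, and 4 had an unadjusted p under 0.05, against 45.5%. They were IER3 at 0.94, KLF4 at -0.79, KLF6 at -0.47 and FOS at -0.37. DESeq2 also called 0. Replicate 1 of the untreated group stood apart in these genes. It had 138 CPM of EGR1 against 249 and 286, 299 CPM of JUN against 476 and 474, 582 CPM of IER3 against 824 and 833, and 390 CPM of FOS against 310 and 267. Across all genes its deviation from the mean of the other untreated libraries had a Spearman's rho of -0.66 with GC content. Without that library IER3 was at 0.79 and EGR1 at -0.37, and IER3 passed without untreated replicate 2, at 1.02, or 3, at 1.03.

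5-FU lowered FOS 13.9-fold in MDA-MB-231. Its log2 fold change was -3.80 (standard error 0.133, adjusted p = 1.8e-09), and ATF3 rose 2.53-fold (log2 1.34, 0.0688, adjusted p = 2.7e-08) and IER3 2.18-fold (log2 1.12, 0.109, adjusted p = 3.7e-06) in edgeR's quasi-likelihood test with Benjamini-Hochberg adjustment. These 3 of 10 genes passed, and 13.3% of all genes did. DUSP1 at -0.67, JUNB at 0.34, JUN at -0.27, EGR1 at -0.20 and the other 3 genes were within 2-fold. Without untreated replicate 1, FOS was at -3.64 and ATF3 at 1.40, and IER3 fell below the threshold at 0.97.

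CKI with 5-FU held far more FOS than 5-FU alone, at nearly the level of CKI alone. Against 5-FU it had 11.1-fold more FOS (log2 3.47, standard error 0.132, adjusted p = 6.3e-09) and 2.28-fold more EGR1 (1.19, 0.191, adjusted p = 0.00029) in edgeR's quasi-likelihood test with Benjamini-Hochberg adjustment. These were 2 of the 10 genes, where 9.77% of all genes were called and 5.26% were higher. No untreated library is among the groups compared, though the untreated libraries share the fit and its estimate of the spread. DUSP1 at 0.68, JUN at 0.62, KLF4 at -0.65, ATF3 at -0.33 and JUNB at -0.34 had smaller differences. The interaction of CKI and 5-FU was 3.84 for FOS (0.174, adjusted p = 1.2e-07), 1.30 for EGR1 (0.268, adjusted p = 0.0033) and -1.01 for IER3 (0.153, adjusted p = 0.00051), which makes 3 of 10 genes against 6.84% of all genes. The interaction of IER3 fell below the threshold in 7 of the 21 alternatives, at -0.859 to -0.999, with the smallest change without untreated replicate 1 and the others including replicate 2 of the CKI, 5-FU and combined groups.

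CKI with 5-FU differed from untreated MDA-MB-231 cells in ATF3 (1.01) and IER3 (1.06), or 2 of 10 genes against 9.04% of all genes and 4.29% upward, and EGR1 lay just under the threshold at 0.99. Without untreated replicate 1, ATF3 alone passed, at 1.07, and IER3 was at 0.91 and EGR1 at 0.74. Without untreated replicate 2 or 3 ATF3 fell below the threshold, at 0.99 and 0.97, and EGR1 passed it, at 1.07 and 1.21, as it did without replicate 2 of the combined group, at 1.06. Against CKI alone, CKI with 5-FU was higher in ATF3 (1.11) and EGR1 (1.11), or 2 of 10 genes against 3.81% of all genes and 1.26% upward, and FOS differed by 0.04 (adjusted p = 0.79 in edgeR's quasi-likelihood test with Benjamini-Hochberg adjustment). The fold changes of that comparison went with GC content at a Spearman's rho of -0.52 across genes. With the offsets, ATF3 was at 1.09 and EGR1 at 1.25.

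**Figure D3:**
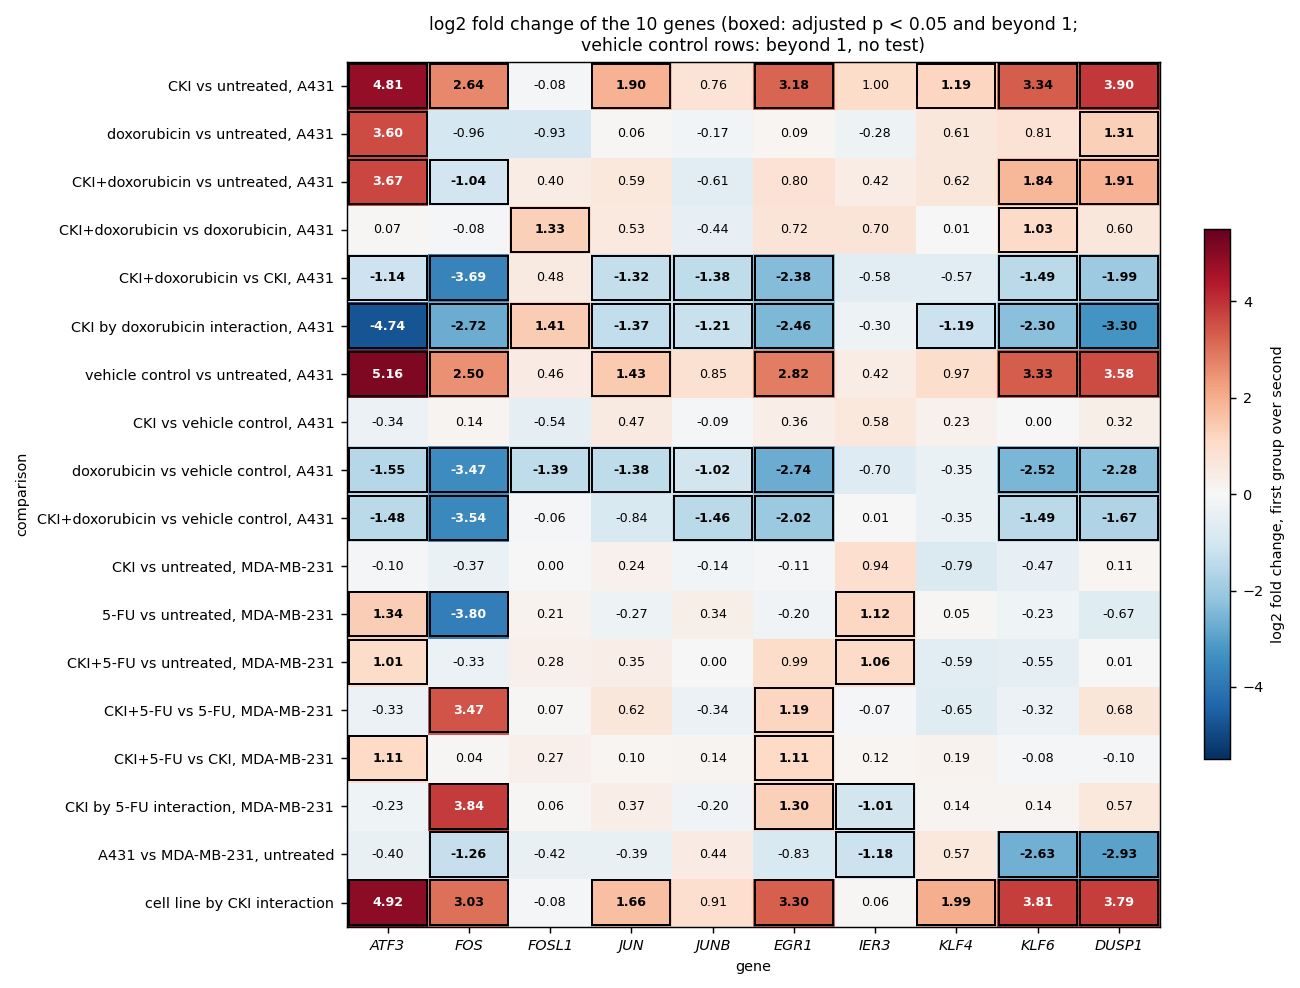
Log2 fold change of each of the 10 genes (columns) in each of the 18 comparisons (rows), first group over second, on a colour scale from blue (lower) to red (higher), with boxes where both thresholds were passed or, in the rows with the vehicle control, where the change was beyond 1, with no test. The rows for CKI and for the vehicle control over untreated A431 are red for most genes, while CKI over vehicle control and CKI over untreated MDA-MB-231 hold no box.

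Between the untreated lines the members were called about as often as all genes. DUSP1 was 7.64-fold lower in A431 than in MDA-MB-231 (log2 -2.93, standard error 0.119, adjusted p = 5.9e-11) and KLF6 6.17-fold lower (-2.63, 0.0904, adjusted p = 1.1e-11), and FOS at -1.26 and IER3 at -1.18 were lower too, by edgeR's quasi-likelihood test with Benjamini-Hochberg adjustment. These are 4 of the 10 genes, where 42.9% of all genes were called and 20.4% were lower. The untreated A431 libraries also helped to choose the genes. ATF3 (-0.40), JUN (-0.39), FOSL1 (-0.42), EGR1 (-0.83), KLF4 (0.57) and JUNB (0.44) were within 2-fold, and JUNB went to -0.13 with GC and length offsets. EGR1 passed without untreated replicate 1 of A431, at -1.02, or of MDA-MB-231, at -1.08. The vehicle control and CKI brought KLF6 in A431 from 51.5 ± 3.93 CPM (SD, n = 3) to 514 ± 32.5 and 554 ± 59.2 CPM, above the 329 ± 8.10 CPM of untreated MDA-MB-231.

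The fold change of CKI over untreated cells differed between lines in 7 of the 10 genes, against 18.5% of all genes and 8.87% upward. This was tested by the interaction of cell line and CKI. It was 4.92 for ATF3 (standard error 0.171, adjusted p = 1.2e-09), 3.81 for KLF6 (0.124, adjusted p = 1.2e-09), 3.79 for DUSP1 (0.160, adjusted p = 4.1e-09), 3.30 for EGR1, 3.03 for FOS, 1.99 for KLF4 and 1.66 for JUN in edgeR's quasi-likelihood test with Benjamini-Hochberg adjustment, all in the direction of a larger rise in A431. JUNB at 0.91, IER3 at 0.06 and FOSL1 at -0.08 did not pass. JUNB passed in 7 alternatives with the same thresholds, at up to 1.5 with GC and length offsets and at 1.02 to 1.09 without CKI replicate 1, untreated replicate 1 or untreated replicate 3 of A431 or untreated replicate 1 of MDA-MB-231. Each line was compared with its own untreated cells here, since MDA-MB-231 had no vehicle control. In A431, 0 of the 10 genes were beyond 2-fold between CKI and the vehicle control, with no test made. The parts of CKI and of a vehicle therefore cannot be told apart in this interaction. The untreated A431 libraries helped to choose the genes, so the count and p-values are not independent of that choice.

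The related genes were 50 in 6 lists, all of them tested, and were chosen with results of these data known. With CKI in A431, 22 of the 50 rose and 2 fell, which is 48% of them against 22.4% of all genes. Among 9 AP-1 partners 6 rose and 1 fell, among 8 EGR family genes and partners 3 rose, among 8 Kruppel-like factors 3 rose, among 10 other immediate early genes 6 rose and 1 fell, and among 10 genes of MAP kinase feedback 4 rose. Of 5 integrated stress response genes around ATF3 (ATF4, DDIT3, TRIB3, CHAC1 and ATF5), 0 passed either way. BATF and NR4A3, among the genes that rose, were at 0 CPM in untreated A431 and at 0.208 and 0.332 CPM with CKI. Their fold changes over untreated A431 rest on few reads, here and in the comparisons below. The smallest adjusted p values belonged to FOSB, an AP-1 subunit, at 4.86, NR4A1, an orphan nuclear receptor, at 3.13 and DUSP5, an ERK phosphatase, at 2.58. FOSB was at 31.0 ± 5.70 CPM (SD, n = 3) in untreated A431, 675 ± 71.4 in the vehicle control, 960 ± 85.5 with CKI, 186 ± 22.9 with doxorubicin and 81.2 ± 5.41 with both. The median over the 50 genes was 0.81 and that of all genes 0.00.

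In the vehicle control, described with no test, 16 of the 50 were more than 2-fold higher than in untreated cells and 0 lower, where 3% of all genes were higher and 4.04% lower. They were 2 of the AP-1 partners, 3 of the EGR family, 1 Kruppel-like factor, 7 other immediate early genes, 3 genes of MAP kinase feedback and 0 of the integrated stress response. BATF, an AP-1 partner, and NR4A3, an immediate early gene, are counted here at 0.0192 and 0.0182 CPM, against 0 CPM untreated. Both values are under the level of 3 counts. FOSB stood at 4.46, CCN1 (a matricellular protein) at 1.75 and ZFP36 (which speeds mRNA decay) at 2.02. Between CKI and the vehicle control 6 were more than 2-fold higher and 5 lower, or 22% against 23.8% of all genes, where CCN2 was at -2.54, DUSP2 at -2.17 and MAFG at 1.12. Low in both groups were BATF (0.208 against 0.0192 CPM) and NR4A3 (0.332 against 0.0182) among the 6 higher. So was BATF3 (0.425 against 0.986) among the 5 lower.

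With doxorubicin alone, 17 of the 50 rose and 2 fell, or 38% against 37.3% of all genes, so they were called about as often as others. DDIT3 (CHOP, the stress factor that ATF4 induces) rose by 2.70, CCN2 by 3.26 and DUSP4 by 1.68. DDIT3 was among 2 integrated stress response genes that rose, and 1 fell. With CKI and doxorubicin 15 rose and 1 fell, or 32% against 35.5%, with DDIT3 at 2.07, MAFG at 1.69 and DUSP5 at 2.15. CKI added to doxorubicin had 2 higher and 6 lower, or 16% against 14.9%, with ATF5 at -1.48, GADD45B at -1.25 and CCN2 at -1.42. Doxorubicin added to CKI had 6 higher and 12 lower, or 36% against 25.7%, with FOSB at -3.48, NR4A1 at -2.29 and DUSP6 at -1.64. Among the 6 higher, BATF (0.543 against 0.208 CPM), NR4A3 (0.681 against 0.332) and BATF3 (1.09 against 0.425) were low in both groups. The interaction of CKI and doxorubicin was positive for 1 and negative for 20 of the 50, or 42% against 19.5%, led by FOSB at -6.04, NR4A1 at -4.31 and DUSP4 at -1.71. BATF3 was the 1 positive gene, and BATF and NR4A3 were among the 20 negative.

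In MDA-MB-231, CKI raised 3 of the 50 related genes and lowered 1, or 8% against 5.96% of all genes, with CCN2 at 1.15, CCN1 at 1.07 and DUSP5 at 1.05. 5-FU raised 7 and lowered 6, or 26% against 13.3%, with CCN2 at -1.39, SPRY1 at -1.61 and DUSP10 at 1.12. CKI with 5-FU had 4 higher and 4 lower than untreated cells, or 16% against 9.04%, with ATF4 at -1.02, DDIT3 at 2.02 and EGR2 at 2.55. Against 5-FU alone it had 5 higher and 4 lower, or 18% against 9.77%, with CCN2 at 2.15, CCN1 at 1.66 and DUSP10 at -1.54. Against CKI alone it had 5 higher and 2 lower, or 14% against 3.81%, with DDIT3 at 1.89, EGR2 at 1.75 and EGR4 at 2.83. EGR4 was low in both groups, at 1.77 CPM with CKI and 5-FU and 0.246 CPM with CKI. The interaction of CKI and 5-FU was positive for 4 and negative for 2, or 12% against 6.84%, with CCN2 at 1.00, DUSP5 at -1.29 and SPRY1 at 1.32. Of the 50, 9 were higher and 19 lower in untreated A431 than in MDA-MB-231, or 56% against 42.9%, with CCN2 at -7.18, SPRY2 at -5.51 and SPRY1 at -3.03. The interaction of line and CKI was positive for 25 and negative for 1, or 52% against 18.5%, with FOSB at 5.27, KLF3 at 1.23 and DUSP5 at 1.54.

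**Figure D4:**
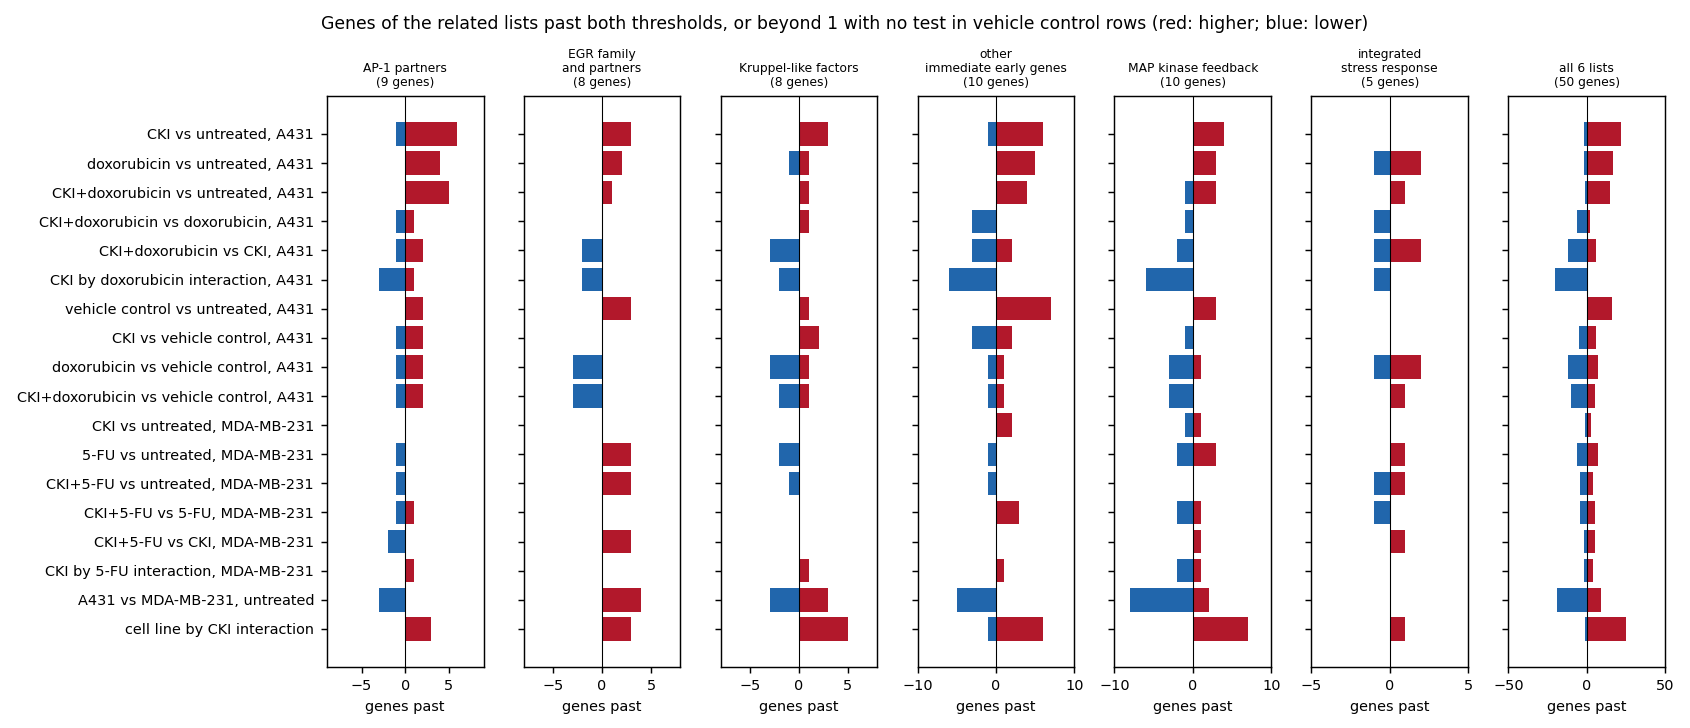
Number of genes of each of the 6 related lists, and of all 50 together, past both thresholds in each comparison, or beyond 1 with no test where the vehicle control is one of the groups, with bars to the right for higher and to the left for lower. The longest bars to the right for all 50 are the 25 of the interaction of line and CKI and the 22 of CKI over untreated A431, and the integrated stress response shows no bar for CKI or vehicle control over untreated A431.

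Genes outside the set that followed a member most closely were found by Pearson's r of log2 CPM over all libraries of a line. The libraries of a group share their treatment, so r describes mostly differences between groups, and it is given without a p-value. Over the 15 A431 libraries ATF3 was most like DUSP5 (0.989) and GADD45A (0.980), FOS like FOXA1 (0.986) and ELF3 (0.980), EGR1 like HES1 (0.977) and ELF3 (0.955), KLF6 like TRIB1 (0.986) and TIPARP (0.978), and DUSP1 like HBEGF (0.987) and TRIB1 (0.987). KLF4 was most like SOX9 (0.978) and HBEGF (0.977), JUN like TULP4 (0.972) and EGR4 (0.957), JUNB like SOX4 (0.981) and ZC3H12A (0.964), and FOSL1 like CAMSAP1 (0.970) and IVL (0.968). Over the 12 MDA-MB-231 libraries other genes led for every member. ATF3 was most like BIRC3 (0.994) and BYSL (0.993), FOS like DLG1 (0.996) and THADA (0.994), EGR1 like MARK3 (0.930) and LIF (0.921), and IER3 like SMG5 (0.996) and SPHK1 (0.994). DUSP1 was most like ETFA (0.987) and MT1E (0.987), KLF6 like RHOJ (0.977) and POGLUT3 (0.977), KLF4 like CDCA7L (0.987) and RCC2 (0.987), JUN like SPRED3 (0.983) and FOXK2 (0.976), JUNB like EIF3B (0.985) and ZNF282 (0.958), and FOSL1 like NOC2L (0.958) and GPRC5D (0.950).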

How the data were processed

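The file deposited by the authors holds unnormalized counts of reads on each gene for 27 libraries, 3 in each of 9 groups. Per the labels the libraries were unstranded and paired-end, and the submitters' processing notes name Trim Galore 0.3.7, STAR 2.5.3a and hg19. The counting tool and annotation are not given in the sources used here, so overlapping genes are uncertain. Total counts were 17757206 to 21756536 in A431 and 19871048 to 22809339 in MDA-MB-231, at which 3 counts are worth 0.138 to 0.169 and 0.132 to 0.151 CPM; such limits cover counting error only. Of 24566 Entrez IDs, 24422 matched a symbol. GRCh37 positions, transcript length and GC content were found for 99.5% of rows, and promoter sequences came from RefSeq (GRCh38.p14).

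Counts were tested with edgeR 4.0.16 in R 4.3.3 (TMM, filterByExpr, glmQLFit, glmQLFTest) over all groups of a line, or over untreated and CKI groups of both lines, calling genes with an adjusted p under 0.05 whose log2 fold change lay beyond 1 in either direction. Comparisons with the vehicle control used the same fit but are described by the size of the change alone, in place of the planned thresholds, because that group chose the genes. A reported interaction is the difference between 2 log2 fold changes. Standard errors were derived by dividing the size of the log2 fold change by the square root of edgeR's F statistic. CPM used TMM over all libraries, and likeness a prior count of 2.

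The 10 genes, the related lists and the tests were chosen with earlier results of these data known. Genes named were the members, the 3 related genes of smallest adjusted p per comparison where over 3 passed, and the 2 genes most like each member in each line, of which those for IER3 in A431 are not reported here. FOSB levels and the listed integrated stress response names are shown beside these. Alternatives were DESeq2 1.42.0, RLE factors, library size alone, no filter, at least 10 counts in every library, the compared groups only, the adjusted p alone, offsets for GC and length (lowess span 0.3), a replicate block, both together, and leaving out each library. No replicate pair agreed within sampling noise (chi-square per degree of freedom 1.87 to 84.1 over 27 pairs). On simulated counts with 200 changed genes, 88% of those changed by 1.5 on the log2 scale were recovered for CKI in A431 (14961 genes tested), 94% for CKI in MDA-MB-231 (13809) and 76% for the interaction of CKI and doxorubicin (14958), where 1.06%, 0.518% and 0.578% of calls were unchanged genes. The simulated libraries held no deviation linked to GC content, such as that of untreated MDA-MB-231 replicate 1. These shares therefore do not cover such deviations.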

Additional observations from a re-analysis of the deposited data

Results flagged for a closer look

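The difference between CKI and untreated cells changed with a second drug or between lines, by a test of the interaction in edgeR's quasi-likelihood model with Benjamini-Hochberg adjustment, for each of the values below. No vehicle control is among the groups that these interactions compare. In A431, CKI over vehicle control was at -0.34 for ATF3, 0.0049 for KLF6 and 0.14 for FOS. The parts of CKI and of a vehicle thus cannot be told apart in these interactions. With doxorubicin in A431 the log2 difference was -4.74 for ATF3, -3.30 for DUSP1, -2.72 for FOS, -2.46 for EGR1, -2.30 for KLF6, -1.37 for JUN, -1.21 for JUNB, -1.19 for KLF4 and 1.41 for FOSL1. With 5-FU in MDA-MB-231 it was 3.84 for FOS, 1.30 for EGR1 and -1.01 for IER3. Between the lines, as A431 minus MDA-MB-231, it was 4.92 for ATF3, 3.81 for KLF6, 3.79 for DUSP1, 3.30 for EGR1, 3.03 for FOS, 1.99 for KLF4 and 1.66 for JUN. The interactions with doxorubicin and between the lines use the untreated A431 libraries that helped to choose the genes. Groups of 3 libraries are too small for a test of single outlying libraries.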

How the results depend on the processing

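Under the alternatives, 2400 log2 fold changes of the 10 genes in the tested comparisons were recomputed. Of these, 2291 kept their side of the thresholds, 23 lost a call, 86 gained one and 0 called values changed sign. The 2291 include 61 values, called in neither fit, whose sign changed, with a size of at most 0.35 in the alternative. With the adjusted p alone, 7 genes passed for doxorubicin (80.6% of all genes did) and 10 for CKI with doxorubicin (79.2%) over untreated A431, 7 for CKI with doxorubicin over doxorubicin (63.6%), 4 for CKI (36.2%), 6 for 5-FU (57.1%) and 6 for CKI with 5-FU (49.7%) over untreated MDA-MB-231, 8 for CKI with 5-FU over 5-FU (50.4%) and 10 between untreated lines (78.6%). It was not run for comparisons with the vehicle control, which have no test. For CKI with doxorubicin over doxorubicin, 1 gene passed with at least 10 counts in every library, 1 with GC and length offsets and 1 with these offsets and the replicate block. For CKI over untreated MDA-MB-231, 1 gene (IER3) passed with library size alone, and 0 to 1 when each library was left out, the 1 being without untreated replicate 2 or 3. For CKI with 5-FU over untreated cells, 1 passed with DESeq2, 1 with RLE factors and 1 to 3 when each library was left out. The cause was not tested. JUNB, at 0.44 between untreated lines, was negative with the offsets. Same-numbered libraries correlated in their deviations from group means at -0.29 to 0.12, and in 0 of 14 comparisons was every pair above 0.1, so they share only a number. With the replicate block 8 of the 10 genes, against 7, passed for CKI over untreated A431, and 3, against 2, for CKI with 5-FU over untreated MDA-MB-231, and no count of the other comparisons moved. Apart from the adjusted p alone, counts under the alternatives are given without the share of all genes in that alternative. They show only whether the main counts moved. Depth did not limit the 10 genes, whose lowest count was 193.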
